A study of Homo sapiens with 4 samples.

Results

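Genes for the subunits, regulators and assembly chaperones of the proteasome were compared between ATAD3A-knockout (KO) and parental (WT) HN12 cells. They were chosen by symbol, namely PSMA, PSMB, PSMC, PSMD, PSME, PSMF or PSMG followed by a number. Of 64 gene rows with such a symbol, 14 pseudogenes, PSMC3IP and 2 rows with a hyphenated name were dropped, which left 47 of the 26726 genes listed. PSMA8 was not analysed here. HN12 is an HNSCC line, that is, cells of a squamous carcinoma of the head or neck, and the KO cells had been made with CRISPR/Cas9 and grown from single cells. There were 2 libraries per group, each from its own culture, and which KO clone or clones gave them is not stated, so ATAD3A loss and other differences between a clone and its parent cannot be told apart. All cells grew with fetal bovine serum, in DMEM by the labels and in a mix of DMEM and F12 by the study's methods.

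The proteasome degrades proteins that carry ubiquitin chains. Its 20S core is a barrel of stacked rings, with gating alpha subunits (PSMA genes) outside and beta subunits (PSMB genes), some of them proteolytic, inside. The 19S particle, made of ATPases (PSMC genes) and non-ATPase subunits (PSMD genes), caps the core, binds ubiquitin chains, removes them and unfolds the substrate. In cells exposed to interferon gamma, PSMB8, PSMB9 and PSMB10 can replace PSMB5, PSMB6 and PSMB7 to form the immunoproteasome, and the transcription factor NFE2L1 is known to raise proteasome genes together when the proteasome is impaired.

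Library totals lay between 13569971 and 18943547 counts. ATAD3A, the targeted gene, stood at 38.0 and 30.0 CPM (read counts scaled by library size) in KO 1 and KO 2 against 116 and 106 CPM in WT 1 and WT 2 (log2 fold change -1.70, SE 0.09, adjusted p = 1.58e-17, edgeR). All 10 epithelial squamous markers passed the filter on low counts, and their summed level was 5158 and 5197 CPM in KO against 2629 and 2599 CPM in WT, with 6 called higher and 4 lower. KRT5 and KRT14 carried this gap in the sums. The other 8 markers summed to 1995 and 2076 CPM in KO against 2083 and 2052 CPM in WT, but they changed in both directions. KRT6A (log2 fold change 2.76), KRT17 (0.94), PKP1 (0.88) and SFN (0.39) were called higher. DSP (-0.49), EPCAM (-0.34), TP63 (-0.28) and CDH1 (-0.24) were called lower. Of 10 leukocyte markers, 9 were listed and 4 passed the filter, with sums of 157 and 163 CPM in KO against 121 and 121 CPM in WT that came mostly from LAPTM5 (84.5 and 86.4 against 47.5 and 47.1 CPM) and CORO1A. The defining markers PTPRC and CD68 did not pass. Of 10 fibroblast and endothelial markers, 7 were listed and 3 passed, with sums from 14.5 to 18.8 CPM over the 4 libraries. The part of the difference in epithelial markers in the results below was not tested.

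Most proteasome genes were strongly expressed. Levels can be compared between genes only per length, in RPKM, and by this measure 38 of the 47 genes were at or over 10 RPKM in WT. The highest were PSMB7, a beta subunit with trypsin-like activity, at 257 and 277 RPKM in WT 1 and WT 2, PSMD2, a scaffold of the 19S base, at 269 and 261 RPKM, and PSMA7, an alpha subunit, at 246 and 275 RPKM. These neighbours overlapped between libraries, so their order was within the spread, while the next gene, the beta subunit PSMB3, lay below them at 188 and 198 RPKM. Across the beta ring the levels were even, from 121 RPKM for PSMB1 to 267 RPKM for PSMB7 (WT means). The 19S ATPases ran from 45.3 RPKM for PSMC6 to 189 RPKM for PSMC3, and the 19S non-ATPase subunits from 17.6 RPKM for PSMD6 to 265 RPKM for PSMD2. The activators ran from 28.3 RPKM for PSME4 to 92.7 RPKM for PSME1.

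The other 9 genes were under 10 RPKM in WT. PSMB11, the beta subunit of the thymus, had counts of 0, 0, 2 and 0 in KO 1, KO 2, WT 1 and WT 2, all at or under the floor of 3 counts. PSMG2, a chaperone of 20S assembly, had counts of 11, 4, 2 and 4 in the same order. Neither passed the filter, which left 45 genes for testing. PSMA6, PSMA2 and PSMA1, which encode constant parts of the alpha ring, were at 1.05, 1.56 and 9.22 RPKM in WT, far under the other alpha subunits PSMA5, PSMA3, PSMA4 and PSMA7, which lay between 24.0 and 260 RPKM.

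Those low alpha genes shared a feature of position. In GENCODE release 29, 80.3% of the PSMA6 transcript with the longest coding sequence lies inside exons of another gene on the same strand, as do 59.5% for PSMA1, 52.5% for PSMA2, 45.3% for PSMB10 and 43.8% for PSMD9. Among the remaining genes the highest such share was 0.114%, and all 5 genes with shared exons were under 10 RPKM. Whether the authors' counting left out reads of shared exons was not tested, so the levels and changes of these 5 genes are uncertain. The length behind RPKM can also differ from that of the transcript used for overlap. For PSMA6 it was 4730 nt against 879 nt, for PSMG4 4603 nt against 629 nt and for PSMC1 2246 nt against 4448 nt. Levels in RPKM depend on that length, and overlap over it was not tested. On the opposite strand, 82.1% of PSMC1 overlaps NRDE2 and 50.4% of PSMD7 overlaps an unnamed transcript. The use of strand in counting is not given in the sources used here, so reads of these partners may not be separable.

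**Figure D1:**
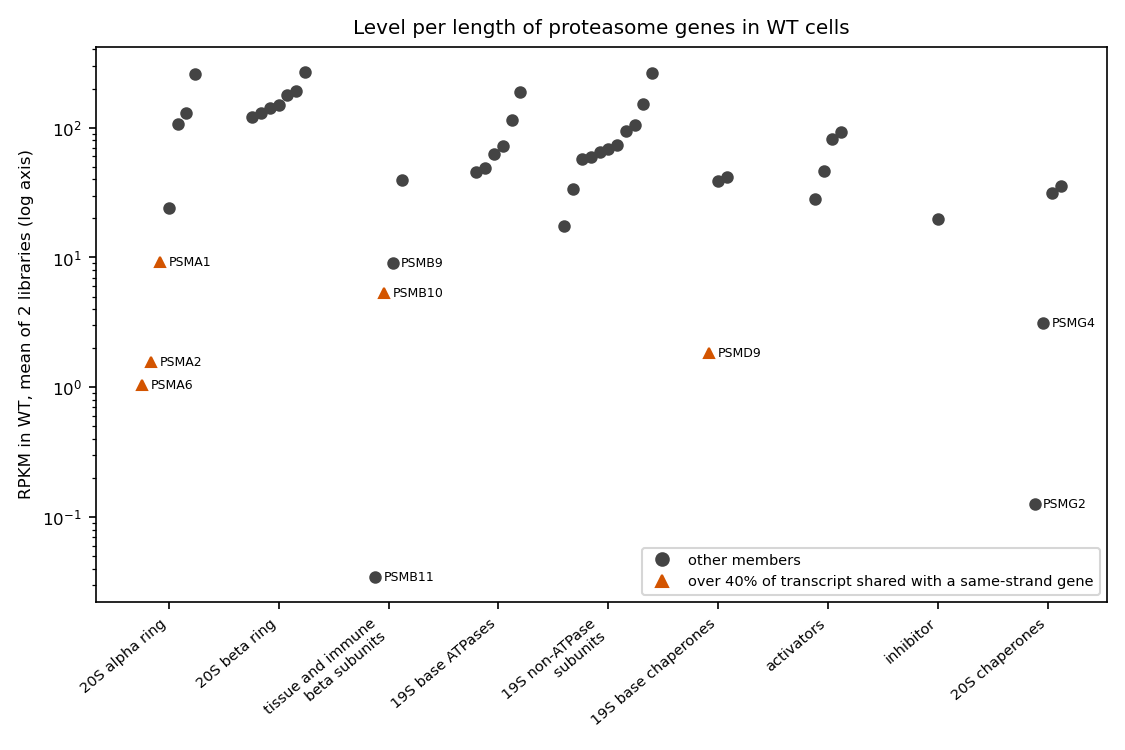
Mean RPKM of 2 WT libraries for each of the 47 proteasome genes (log axis), in columns by class, with 1 point per gene. The triangles mark the 5 genes with over 40% of the transcript shared with a same-strand gene, and all of them lie under 10 RPKM, whereas the 7 constitutive beta subunits lie between 121 and 267 RPKM.

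The genes changed in both directions and by small amounts. Of the 45 genes tested, 10 were higher and 16 lower in KO at an adjusted p under 0.05, which is 22.2% and 35.6%, beside 20.4% higher and 19.1% lower among all 15104 genes tested (quasi-likelihood test of edgeR, p-values adjusted by Benjamini and Hochberg's method). No member changed by over 2-fold. Among called members the folds of KO over WT ran from 0.581 to 1.34. The median log2 fold change of the 45 genes was -0.06, beside -0.0042 over all genes. Both KO libraries lay above both WT libraries for 14 genes (31.1%) and below for 19 (42.2%), beside 34.1% and 34% of all genes. Fewer cells with a transcript and less RNA per cell cannot be told apart in these bulk samples.

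The split between directions differed between settings. With scaling by totals, limma on log2(RPKM + 1) and the correction for GC content and length, that of all genes moved the same way. Higher genes made up 38.5% of the 26 calls among members, beside 51.6% of the calls over all genes. When libraries were scaled by their totals alone they made up 25% of 24 calls, beside 41% over all genes, and with limma on log2(RPKM + 1), which also changes the test and the scale, 15% of 20 calls, beside 42.6%. Once GC content and transcript length had been corrected for (the GC and length correction), they made up 50% of 18 calls, beside 64.2% over all genes, where 22.8% of genes were called higher and 12.7% lower. The median turned to 0.02 under that correction, beside 0.05 over all genes. At the cutoffs that the study's methods give, which pair an unadjusted p with a minimum fold in each direction (under 0.75 for lower genes), only PSMA7 passed as higher and only PSMA1, PSMA2 and PSMA6 as lower, beside 17% and 12.2% of all genes. Leaving out 1 library also moved the split, and there the median of all genes did not always move with that of the members. Without WT 1 the median log2 fold change was -0.0661 for the members and 0.0080 over all genes. Without KO 2 it was -0.0148 for the members and -0.0086 over all genes.

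**Figure D2:**
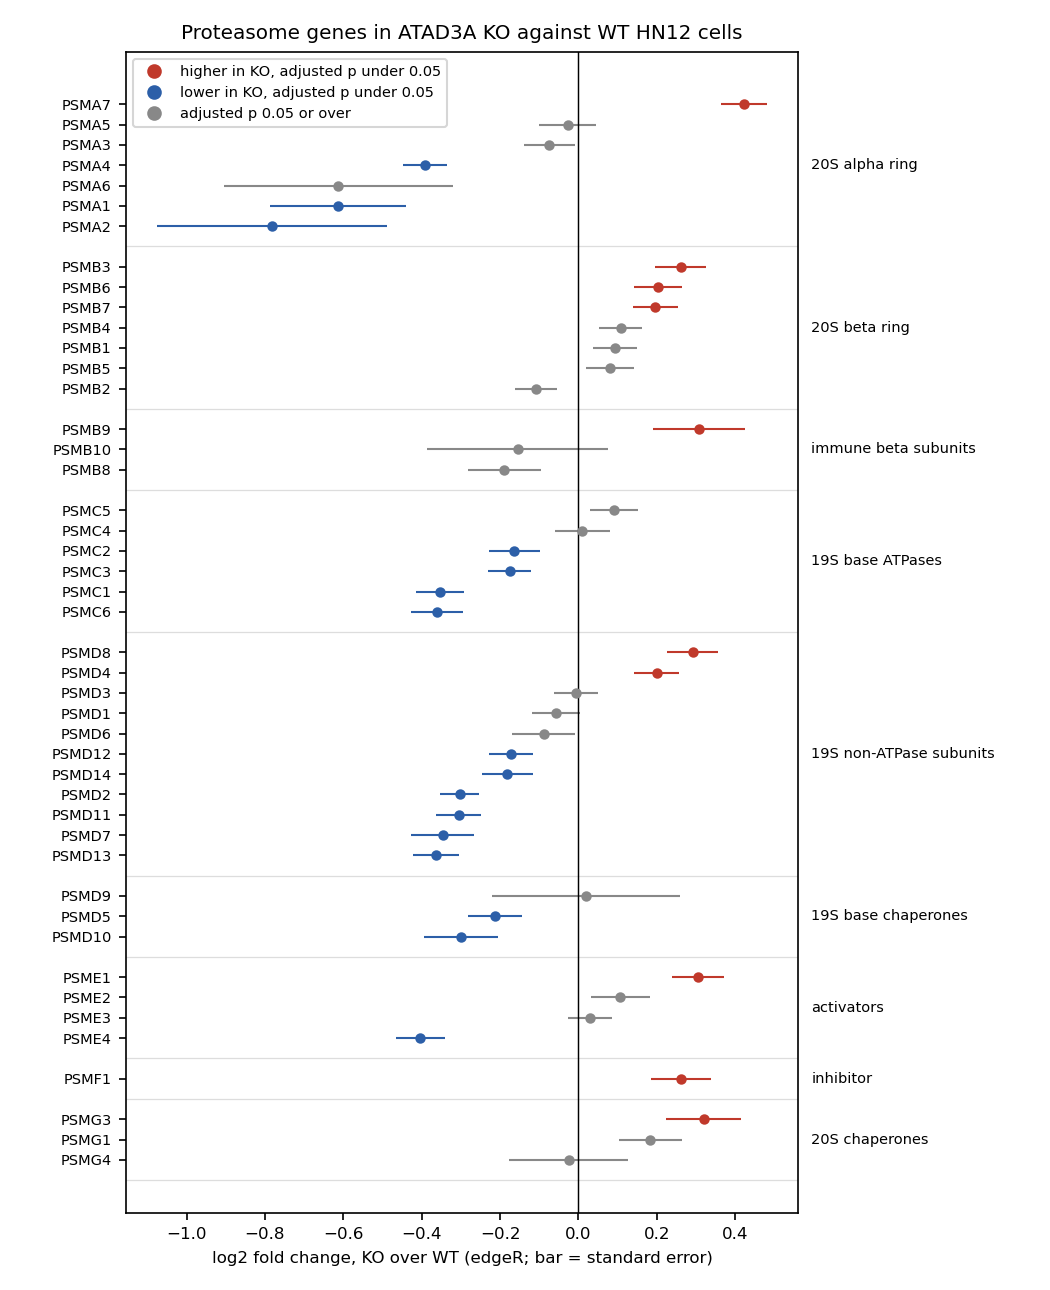
Log2 fold change of KO over WT for the 45 genes tested, by class, with bars for the standard error from edgeR and colours for the call at an adjusted p under 0.05. In the 19S particle 10 of 17 genes were called lower and 2 higher, beside 19.1% and 20.4% of all genes. In the beta ring 3 of 7 were called higher and 0 lower. Under the GC and length correction the particle had 6 lower and 3 higher, and the ring 1 higher. The shares of all genes were then 12.7% lower and 22.8% higher.

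Among the alpha subunits, PSMA7 rose and PSMA4 fell, both well expressed. PSMA7 was at 362 and 335 CPM in KO 1 and KO 2 against 246 and 274 CPM in WT 1 and WT 2, so both KO libraries lay above both WT libraries (log2 fold change 0.42, SE 0.06, adjusted p = 2.79e-07, edgeR). PSMA4 was at 275 and 254 CPM in KO against 354 and 340.5 CPM in WT, with no overlap (log2 fold change -0.39, SE 0.06, adjusted p = 5.67e-07, edgeR). Both calls held in all 13 alternative settings. PSMA2 had the largest fall by log2 fold change, at -0.78 (SE 0.29, adjusted p = 0.0316, edgeR), but from 5.04 and 2.37 CPM in KO against 4.83 and 8.11 CPM in WT, where the groups overlapped. It was the only called gene with overlapping groups, and the call was lost in 6 of the 13 settings. PSMA1 fell by 0.61 on the log2 scale, from 15.1 and 12.3 CPM in WT to 9.80 and 8.16 CPM in KO. PSMA6 had a log2 fold change of -0.61 (SE 0.29, adjusted p = 0.0957, edgeR), PSMA3 of -0.07 and PSMA5 of -0.03, none of them called, and PSMA5 was called higher after the GC and length correction, at 0.27.

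The constitutive beta ring held 3 genes called higher and 0 lower out of 7, with a median log2 fold change of 0.11. PSMB3, a structural beta subunit, was at 185 and 163 CPM in KO against 142 and 149 CPM in WT, with no overlap (log2 fold change 0.26, SE 0.07, adjusted p = 0.00134, edgeR). PSMB6, the caspase-like protease, was at 171 and 169 CPM against 144 and 151 CPM, again with no overlap (log2 fold change 0.20, SE 0.06, adjusted p = 0.00716, edgeR). PSMB7, at 304 and 285 CPM against 248 and 266 CPM, had a log2 fold change of 0.20 (SE 0.06, adjusted p = 0.00562, edgeR). The chymotrypsin-like PSMB5 was at 194 and 181 CPM against 170 and 184 CPM, the groups overlapped, and it was not called (log2 fold change 0.08, SE 0.06, adjusted p = 0.321, edgeR). PSMB1 at 0.09, PSMB4 at 0.11 and PSMB2 at -0.11 were not called either. Summed over the 7 genes, the ring was at 1762 and 1665 CPM in KO against 1576 and 1626 CPM in WT. All 3 calls were lost after the GC and length correction, where PSMB6 was at -0.04, PSMB7 at 0.04 and PSMB3 at 0.02, while PSMB1 was called higher at 0.25.

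The immunoproteasome subunits did not move as a set. PSMB9, which replaces PSMB6, was at 30.7 and 27.6 CPM in KO against 22.2 and 25.0 CPM in WT, with KO above WT (log2 fold change 0.31, SE 0.12, adjusted p = 0.0344, edgeR). PSMB8, which replaces PSMB5, was at 47.7 and 43.0 CPM in KO against 48.7 and 54.8 CPM in WT, with KO below WT by a narrow gap (log2 fold change -0.19, SE 0.09, adjusted p = 0.107, edgeR). PSMB10, which replaces PSMB7, was at 5.36 and 5.97 CPM against 5.87 and 6.75 CPM, and the groups overlapped (log2 fold change -0.15, SE 0.23, adjusted p = 0.64, edgeR). The PSMB9 call was lost in 6 of the 13 settings, with DESeq2 among them. PSMB8 was called lower when libraries were scaled by totals, with limma on RPKM, and after the GC and length correction, at -0.35 there.

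PSMB8 and PSMB9 are neighbours in the major histocompatibility complex, at chr6:32840717-32844703 on the minus strand and chr6:32844136-32859585 on the plus strand of GRCh38. Their spans overlap, but 0% of the transcript with the longest coding sequence of either gene lies in exons of a gene on the other strand. That PSMB9 transcript has 782 nt, while the length behind its RPKM is 2676 nt. TAP1, at chr6:32845209-32853978 on the minus strand, lies within the PSMB9 span. Overlap over the longer length was not tested, and the level of PSMB9 in RPKM depends on it. As a percentage of the constitutive partner in RPKM, PSMB8 was at 23.6% and 22.7% of PSMB5 in KO against 27.4% and 28.5% in WT. PSMB10 was at 1.43% and 1.70% of PSMB7 in KO against 1.92% and 2.05% in WT. For PSMB9 the percentages of PSMB6 were 5.64% and 5.16% in KO against 4.84% and 5.21% in WT, and here the groups overlapped. The first and second ratios were thus lower in both KO libraries, at 0.829 and 0.787 of the WT mean, and the last was at 1.07. The PSMB10 ratio is uncertain, since it rests on 99 and 98 counts in KO and 91 and 94 in WT. PSMB10 is also one of the genes with shared exons. An exact permutation test of 2 against 2 libraries cannot reach 0.05, and none was run on these ratios.

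**Figure D3:**
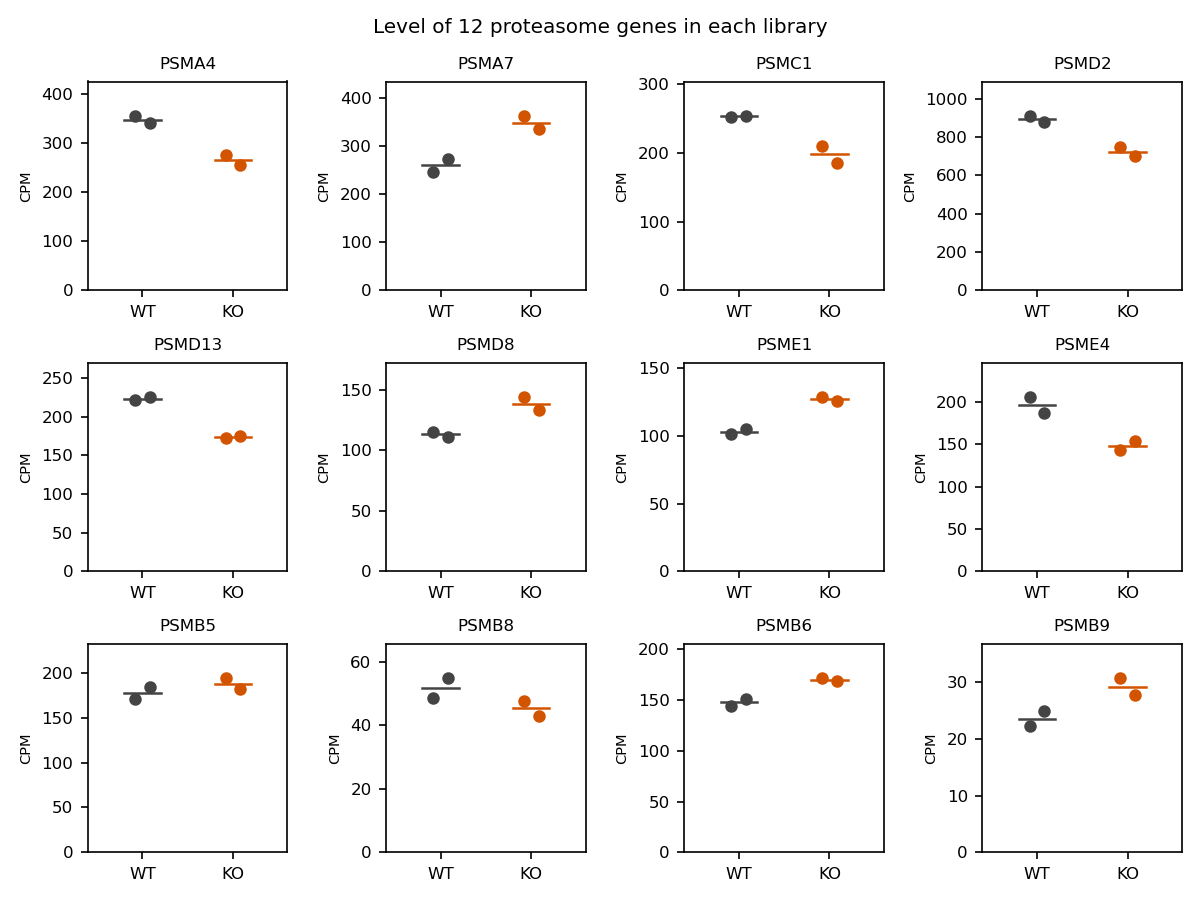
CPM of 12 proteasome genes in each of the 2 WT and 2 KO libraries, with 1 point per library and a bar for the group mean, and axes that start at 0. PSMA4, PSMC1, PSMD2, PSMD13 and PSME4 lie lower in both KO libraries, PSMA7, PSMD8, PSME1, PSMB6 and PSMB9 higher, PSMB8 lower without a call, and PSMB5 overlaps.

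The 19S particle leaned lower. Of its 6 ATPases and 11 non-ATPase subunits, 10 genes were called lower (58.8%) and 2 higher (11.8%), beside 19.1% and 20.4% of all genes. The median log2 fold change of the particle was -0.17. The ATPases summed to 997 and 935 CPM in KO against 1086 and 1088 CPM in WT, and the non-ATPase subunits to 2526 and 2416 CPM against 2815 and 2725 CPM. Over the 13 alternative settings the calls in the particle ranged from 6 to 10 lower and from 1 to 3 higher. With the GC and length correction, 6 of the 17 genes were called lower and 3 higher, beside 12.7% and 22.8% of all genes. Their median was -0.04 and that of the non-ATPase subunits 0.05, beside 0.05 over all genes.

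Of the 6 ATPases, which drive unfolding, 4 were called lower and 0 higher. PSMC6 fell most, at 101 and 101 CPM in KO against 129 and 131 CPM in WT (log2 fold change -0.36, SE 0.07, adjusted p = 2.79e-05, edgeR), but after the correction it was at -0.11 and not called. PSMC1 was at 210 and 186 CPM in KO against 253 and 253 CPM in WT (log2 fold change -0.35, SE 0.06, adjusted p = 1.01e-05, edgeR). Both genes had KO libraries below WT libraries, and the PSMC1 call held in all 13 settings. PSMC3 was at -0.18 and PSMC2 at -0.16 on the log2 scale, both called lower, and the PSMC2 call was lost in 7 settings. PSMC4 at 0.01 and PSMC5 at 0.09 were not called.

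The non-ATPase subunits split, with 6 called lower and 2 called higher of 11. PSMD13, a lid subunit, was at 172 and 175 CPM in KO against 221 and 225 CPM in WT (log2 fold change -0.36, SE 0.06, adjusted p = 3.75e-06, edgeR). PSMD2, the most abundant 19S gene, was at 747 and 699 CPM in KO against 908 and 876 CPM in WT (log2 fold change -0.30, SE 0.05, adjusted p = 6.37e-06, edgeR). Neither had overlapping groups. PSMD11, a lid subunit, was at 219 and 222 CPM against 282 and 264 CPM (log2 fold change -0.31), and PSMD7, the partner of the deubiquitinase PSMD14, at 79.9 and 65.9 CPM against 92.3 and 93.2 CPM (log2 fold change -0.35). The calls of PSMD13, PSMD2, PSMD11 and PSMD7 held in all 13 settings.

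The calls of 2 further lid genes turned round. PSMD14, the deubiquitinase of the lid, was at -0.18 and PSMD12 at -0.17 in log2 fold change and both were called lower, but after the GC and length correction both were called higher, at 0.17 and 0.13. Against the main direction, PSMD8, a lid subunit, was at 144 and 134 CPM in KO against 115 and 111 CPM in WT (log2 fold change 0.29, SE 0.07, adjusted p = 0.00046, edgeR). PSMD4, a ubiquitin receptor, had a log2 fold change of 0.20 and was called higher. After the correction neither was called. PSMD1, PSMD3 and PSMD6 were not called, with log2 fold changes of -0.06, -0.01 and -0.09, although PSMD6 was called higher at 0.21 after the correction.

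The chaperones of the 19S base are PSMD5, PSMD9 and PSMD10, which hold ATPases during assembly. PSMD10, also known as gankyrin, was at 56.2 and 45.7 CPM in KO against 58.6 and 67.1 CPM in WT, with KO below WT (log2 fold change -0.30, SE 0.09, adjusted p = 0.0102, edgeR). PSMD5 was called lower with a log2 fold change of -0.21. PSMD9, one of the genes with shared exons, was at 0.02 and not called. Both calls in this class were lost after the GC and length correction.

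The activators, which open the core without ATP, differed from one another. PSME1, which forms the interferon-inducible PA28 ring with PSME2, was at 128 and 126 CPM in KO against 101 and 105 CPM in WT, with KO above WT (log2 fold change 0.30, SE 0.07, adjusted p = 0.000296, edgeR). Its partner PSME2 was at 148 and 119 CPM in KO against 121 and 127 CPM in WT, the groups overlapped, and it was not called (log2 fold change 0.11, SE 0.07, adjusted p = 0.269, edgeR). Leaving out KO 1, its only high library, turned the PSME2 value to -0.06.

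PSME3, the nuclear PA28 gamma, was at 267 and 247 CPM against 252 and 252 CPM and was not called (log2 fold change 0.03, SE 0.06, adjusted p = 0.732, edgeR). PSME4, the activator PA200, was at 143 and 154 CPM in KO against 205 and 186 CPM in WT, with KO below WT (log2 fold change -0.40, SE 0.06, adjusted p = 2.57e-06, edgeR). After the GC and length correction PSME1 was at 0.13 and PSME4 at -0.11, and neither was called. PSMF1, an inhibitor of the core known as PI31, was at 104 and 94.8 CPM in KO against 89.1 and 76.3 CPM in WT, with KO above WT (log2 fold change 0.26, SE 0.08, adjusted p = 0.00615, edgeR). Under the correction it kept its call, at 0.36, while limma on RPKM did not call it.

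Of the chaperones of 20S assembly, PSMG3 was at 66.2 and 53.7 CPM in KO against 45.0 and 51.3 CPM in WT, with KO above WT by a narrow gap (log2 fold change 0.32, SE 0.10, adjusted p = 0.00716, edgeR). PSMG1 was at 77.5 and 70.9 CPM against 65.0 and 65.7 CPM, did not overlap and was not called (log2 fold change 0.18, SE 0.08, adjusted p = 0.0662, edgeR). PSMG4 was at 13.4 and 14.2 CPM against 14.6 and 13.4 CPM, with overlapping groups (log2 fold change -0.03, SE 0.15, adjusted p = 0.918, edgeR). The PSMG3 call was lost after the GC and length correction, while PSMG1 was called higher there, at 0.21.

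The changes of the members went with the base composition of their transcripts. The 10 genes called higher had a median GC content of 53.4% (46.9% to 58.8%) and a median length of 1243 nt, and the 16 called lower of 41.8% (32.0% to 56.2%) and 2997 nt. Across the 45 genes the log2 fold change correlated with GC content at r = 0.469 and with log2 length at r = -0.451, values that describe genes of the same 4 libraries, beside 0.250 and -0.088 over 14843 genes. After the correction the correlation with GC content was -0.166. Of the 10 higher calls 3 kept that call under the correction, and of the 16 lower calls 8 did. A further 6 genes were called higher and 1 lower only there. The part of GC content and length in the individual calls was not tested beyond this correction.

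Calls of 7 genes held in all 13 alternative settings. They were PSMA7, which was higher, and PSMA4, PSMC1, PSMD2, PSMD7, PSMD11 and PSMD13, which were lower. All settings start from the same deposited data, so the opposite-strand overlaps of PSMC1 and PSMD7 were not tested by them. Across those settings the log2 fold change of PSMA7 ranged from 0.20 to 0.50, that of PSMD13 from -0.43 to -0.35 and that of PSMD2 from -0.37 to -0.24.

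**Figure D4:**
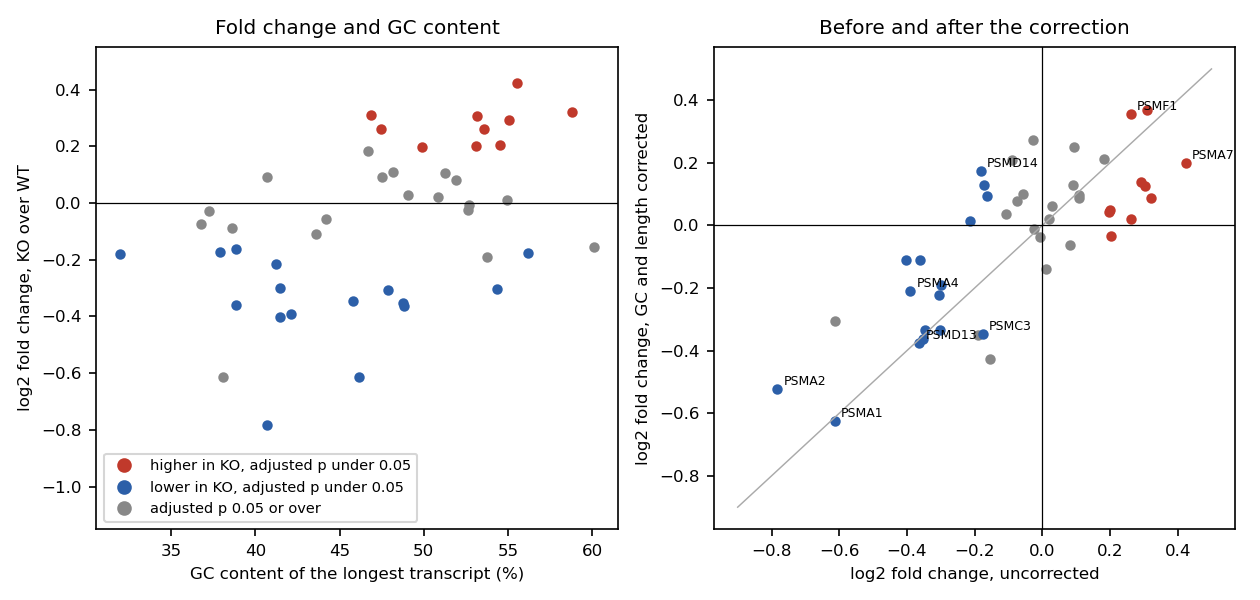
Left, log2 fold change against GC content of the longest transcript for the 45 genes tested; right, the log2 fold change before and after the GC and length correction, with the line of equality. The genes called higher (red) lie at GC contents from 46.9% to 58.8%, and PSMA7, PSMA4 and PSMD13 keep their side of 0 after the correction while PSMD14 crosses it.

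Upstream sequence was examined for the binding motif of NFE2L1 and its relative NFE2L2. RefSeq promoters on GRCh38.p14, 250 bases before to 50 after the start of the gene, were found for 41 of the 47 genes. The core of the antioxidant response element, TGACNNNGC on either strand, was in 13 of the 41, or 31.7%, beside 13.6% of all 27305 promoters of the same length. Among genes with a promoter it was in 3 of 5 called higher and 3 of 16 called lower, so it was not limited to 1 direction. It was also in 6 of 18 not called and 1 of 2 not tested. Promoters were found for only 5 of the 10 genes called higher, which leaves out PSMA7, PSMB6, PSMB7, PSMD4 and PSMG3. The shares by call are therefore not comparable. Only stretches that overlap no GENCODE exon are printed. Upstream matches of PSMD5 and PSME4 (called lower), PSMD3, PSME2 and PSMG1 (not called) and PSMG2 (not tested) were thus left out. The stretches below show matches upstream of the start in capitals, 5′ to 3′ on the gene's strand. They are in genes called higher (PSMB3, PSMB9, PSME1), lower (PSMD12) and not called (PSMD9). Upstream here refers to the RefSeq start, which for PSMB9 lies inside the longer GENCODE span given above. In PSMB9 and in the first match of PSMD9 the capitals are the reverse complement of the motif. They lie at chr17:38752611-38752671 (plus), chr6:32854018-32854078 (plus), chr14:24136082-24136142 (plus), chr17:67366708-67366768 (minus) and chr12:121888615-121888722 (plus), in the order printed.
PSMB3: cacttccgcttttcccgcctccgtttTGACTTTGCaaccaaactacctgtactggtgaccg
PSMB9: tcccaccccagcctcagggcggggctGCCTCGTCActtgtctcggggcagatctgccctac
PSME1: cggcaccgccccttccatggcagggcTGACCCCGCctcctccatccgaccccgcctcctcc
PSMD12: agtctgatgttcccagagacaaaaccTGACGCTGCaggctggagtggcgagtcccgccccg
PSMD9: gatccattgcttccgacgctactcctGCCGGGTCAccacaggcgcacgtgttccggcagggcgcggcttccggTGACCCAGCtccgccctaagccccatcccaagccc

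Other motifs were searched in the same windows on both strands. The core of the interferon-stimulated response element, GAAANNGAAA, was in 14.6% of proteasome promoters beside 3.65% of all promoters, in PSMA4, PSMB4, PSMB10, PSME1, PSME2 and PSMG4. Of these, PSME1 was called higher, PSMA4 lower, and the rest were not called. The gamma activated site, TTCNNNGAA, was in 9.76% beside 7.88%, and the CCAAT box, the motif of NF-Y, in 46.3% beside 35.7%. A match is a string of letters in the window and was not tested as a binding site.

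Genes that act with the proteasome were counted from lists, beside 20.4% of all genes called higher and 19.1% called lower. After the GC and length correction those shares were 22.8% and 12.7%. NFE2L1 rose slightly, from 194 and 192 CPM in WT to 208 and 227 CPM in KO (log2 fold change 0.17, SE 0.06, adjusted p = 0.0212, edgeR). It heads a list of 12 genes that also holds NFE2L2 and regulators of either factor, so counts over the list do not measure NFE2L1 activity. Of these 12 genes 5 were called higher (41.7%) and 0 lower. The 5 were NFE2L1 itself, MAFK at 0.30, KEAP1 at 0.27, MAFF at 0.23 and SYVN1 at 0.22. With scaling by library totals, where 16.6% of all genes were called higher and 23.9% lower, these counts were 2 higher and 2 lower. After the GC and length correction they were 2 higher, NFE2L1 at 0.15 and DDI2 at 0.31, and 0 lower. DESeq2 called 2 higher and 0 lower, and limma on RPKM called 1 in each direction. Without WT 1 edgeR called 0 of the 12 genes, 5 of which were higher at an unadjusted p under 0.05, and without WT 2 it called 2 higher and 0 lower. Of 6 genes for ubiquitin and its E1 enzymes, 5 were called higher, among them UBB at 0.40, RPS27A at 0.30 and UBA1 at 0.16, and UBA6 was called lower at -0.38. After the GC and length correction 4 of the 6 were called higher and 0 lower, with UBA1 at 0.10 and UBA6 at -0.02 no longer called.

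Among 20 proteasome partners 2 were called higher (10%) and 6 lower (30%), beside 20.4% and 19.1% of all genes. The largest falls were of TXNL1, a thioredoxin of the 19S particle (log2 fold change -1.09), USP14, a deubiquitinase of the 19S particle (-0.80), and UBQLN1, a shuttle for ubiquitinated proteins (-0.66). TXNL1 was at 24.8 and 22.7 CPM in KO against 51.0 and 50.3 CPM in WT, and USP14 at 94.7 and 92.0 CPM against 164 and 160 CPM, both with KO below WT. Both genes lie on chromosome 18, TXNL1 at chr18:56597208-56651600 and USP14 at chr18:158383-214629. The part of this shared chromosome in their falls was not tested. ZFAND5 at -0.33 and UBE3A at -0.31 were called lower, and SHFM1, a small 19S subunit, was called higher at 0.29. KIAA0368 was called lower at -0.19. The maturation factor POMP at 0.07 and the ubiquitin receptor ADRM1 at 0.20 were not called, although POMP was called higher at 0.26 after the GC and length correction. With that correction the calls of ZFAND5, UBE3A and KIAA0368 were lost, at -0.0335, -0.0038 and 0.0137. The partners then had 5 calls in each direction, beside 22.8% of all genes higher and 12.7% lower.

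The segregase p97 extracts proteins for the proteasome. Of 15 tested genes for p97 (VCP), its cofactors and its partners at the endoplasmic reticulum, 7 were called lower (46.7%) and 0 higher. Among all genes 19.1% were lower and 20.4% higher. The falls included those of UBXN7 (-1.18), SEL1L (-0.51), UBXN4 (-0.50), UFD1L (-0.31) and FAF2 (-0.24), with NPLOC4 at -0.20. After the GC and length correction 6 were called lower and 4 higher, beside the 12.7% and 22.8% of all genes under that correction. FAF2 lost its call there, at -0.11. Of 20 regulators of the immunoproteasome and genes of peptide loading, 7 were called higher (35%) and 5 lower (25%), beside 20.4% and 19.1% of all genes. With scaling by library totals 3 were higher and 6 lower, beside 16.6% and 23.9% of all genes. After the GC and length correction 4 were higher and 3 lower, beside 22.8% and 12.7% of all genes. B2M had the largest rise (0.44), with TAPBPL at 0.41, HLA-B at 0.32 and NLRC5, an activator of MHC class I genes, at 0.31. After the correction B2M kept its call, at 0.63. TAPBPL, HLA-B and NLRC5 were not called there, at 0.28, 0.10 and 0.29. TAPBP at -0.47, TAP2 at -0.41 and LNPEP at -0.41 fell. With the correction TAPBP and TAP2 kept their calls, at -0.54 and -0.33, while LNPEP was at 0.03 and not called. TAP1, which lies beside PSMB8 and within the span of PSMB9, was at -0.0048 uncorrected and not called.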

How the data were processed

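RNA-seq of 2 KO and 2 WT libraries of HN12 cells was used. The authors extracted total RNA, had it sequenced as 50-nt reads and deposited whole-number read counts per Ensembl gene, not normalized. A further table deposited by the authors holds values that equal RPKM (the count per gene length and library total), a unit worked out from the values. The submitters' processing notes name CASAVA, STAR 2.5, HTSeq, edgeR 3.16.5 and DESeq2 and the build hg19, with no role. Strand and annotation are not given in the sources used here. The study's methods describe duplicate cultures.

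Counts were fitted over 15104 genes that passed filterByExpr with edgeR 4.0.16 (glmQLFit and glmQLFTest, TMM, no replicate term) in R 4.3.3, with Benjamini-Hochberg adjustment over all genes and calls at an adjusted p under 0.05. SE is the log2 fold change divided by the root of F. CPM uses TMM-scaled totals, and 3 counts (0.162 to 0.215 CPM) served as the floor, which covers counting error only. The biological coefficient of variation was 5.88%. GC content (98.3% of genes tested), positions and overlaps came from GENCODE release 29 (GRCh38) by Ensembl identifier, and length is that implied by RPKM. The GC and length correction used splines with 4 degrees of freedom per library as offsets. DESeq2 1.42.0 and limma 3.58.1 on log2(RPKM + 1) and log2(RPKM + 0.1) served as alternatives. The main edgeR fit, DESeq2 and limma on a log2 CPM scale were tested on simulated data. The GC and length correction and the other settings were not.

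Members and gene lists were chosen with earlier results of these data known. Values per library are given for the immunoproteasome subunits with their partners, activators, PSMF1, 20S chaperones and, per other class, the largest rise and fall among genes called. Other called members are named. Other lists name up to 6 called genes each, plus NFE2L1, POMP, ADRM1, TAP1, TAP2 and NLRC5. Some genes of these lists are counted but not reported by name here. Library values of PSMA1, PSMA4, PSMC1, PSMD2, PSMD7, PSMD11, TXNL1 and USP14, the names KIAA0368 and NPLOC4, and the exclusion of genes with shared exons were chosen after their values were seen.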

Additional observations from a re-analysis of the deposited data

How the results depend on the processing

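Counts of 10 higher and 16 lower calls stayed within 1.5 times with DESeq2 (9 and 13), its size factors in edgeR, and either filter. With the replicate number as a block they were 10 and 15, PSMC2 being the call lost (adjusted p = 0.0635, edgeR). The numbers did not pair the libraries (correlation -0.0514 of their deviations). Higher calls were 6 with library totals, 3 with limma on either RPKM scale, and 1 at the study's thresholds, where lower calls were 3, and lower calls were 9 after the GC and length correction. Leaving out 1 library in turn (the lone library assumed to vary like the other group) gave 5 to 13 higher, 10 to 16 lower and 15 to 24 calls in all, against 26, the fewest without WT 1. The median log2 fold change was -0.13 with library totals, -0.12 with either limma scale, 0.0214 after the correction, -0.0723 to -0.0148 on leaving out a library and -0.0261 without the 5 genes with shared exons, a choice made after seeing the data (10 higher and 14 lower of 40). Of 585 values of single members, 35 reversed, and 5 of the 26 called members reversed in some setting. The 5 were PSMD5, PSMD14, PSMB6, PSMC2 and PSMD12, each reversed only with the GC and length correction. Over all members, called or not, the reversed log2 fold changes were PSMC4 -0.0599, PSMD9 -0.0499 and PSME3 -0.0410 with library totals. They were PSMC4 -0.0608, PSMD9 -0.0303 and PSME3 -0.0416 with limma on log2(RPKM + 1), and PSMC4 -0.0616, PSMD9 -0.0445 and PSME3 -0.0420 with log2(RPKM + 0.1). PSMD3 was at 0.00551 with no filter. With the correction they were PSMC4 -0.14, PSMD5 0.0157, PSMA3 0.0786, PSMB5 -0.0611, PSMD14 0.17, PSMB2 0.0363, PSMB6 -0.0353, PSMA5 0.27, PSMC2 0.0936, PSMD6 0.21, PSMD1 0.0994 and PSMD12 0.13. On leaving out a library the ranges were PSMC4 -0.0699 to 0.10, PSME2 -0.0555 to 0.27, PSMD3 -0.0442 to 0.0361, PSME3 -0.0237 to 0.0975, PSMG4 -0.0869 to 0.0440, PSMD9 -0.0370 to 0.0838, PSMA5 -0.0661 to 0.0139 and PSMD1 -0.12 to 0.0138. The cause of these reversals was not tested. Ratios of PSMB8, PSMB9 and PSMB10 to their partners, and ATAD3A, kept their direction in every setting run on them. For the ratios these were leaving out each library and CPM in place of RPKM. The change to CPM could not alter them, since gene length cancels between KO and WT. The GC and length correction was not run on the ratios. All settings reuse the same libraries, in which the PSMB10 counts ran only from 91 to 99. The total of calls over the other lists stayed within 1.5 times. Depth limits mainly PSMA2, PSMA6, PSMB10 and PSMD9, with SEs up to 0.29.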
